A study of Saccharomyces cerevisiae with 4 samples.

Results

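The genes described here are 49 budding yeast (Saccharomyces cerevisiae) genes for factors that assemble, mature and export the large (60S) ribosomal subunit. They were taken as the probe sets whose annotated gene symbol is one of 49 listed names, and all 49 were found, each with 1 probe set, among 5430 genes compared. The study measured total RNA of log-phase cells in rich medium (YPD) on 4 Affymetrix arrays, 1 for each group, so no group has a replicate. The groups were hsp30Δ cells after 30 min at 40 °C, hsp30Δ cells at 30 °C, BY4741 cells after 30 min at 40 °C and BY4741 cells at 30 °C. BY4741 is a laboratory MATa haploid with the alleles his3Δ1, leu2Δ0, met15Δ0 and ura3Δ0, and hsp30Δ is the same strain with kanMX in place of HSP30, the gene of a plasma membrane stress protein. The design asks which genes differ between hsp30Δ cells and their control in either condition.

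The large subunit is built around a ribosomal RNA precursor in the nucleolus, where RNA-binding proteins, helicases and methyltransferases fold and modify the RNA. The particle then loses its internal spacers, passes through the nucleoplasm with the help of GTPases, and leaves through the nuclear pore with export adaptors. In the cytoplasm the last assembly factors are exchanged for ribosomal proteins. In budding yeast these genes belong to a regulon whose transcripts are known to drop in heat and other stress and to rise with growth on glucose.

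HSP30 itself read 15.91 and 15.18 log2 units under the hsp30Δ label at 40 °C and 30 °C, against 14.18 and 15.51 in BY4741 at 40 °C and 30 °C, so the signal did not mark the deletion. The position of its probes relative to the deleted part was not analysed here, and strain is therefore given by the array's label throughout. MET17 (the met15 gene), deleted in the parent strain, read 1.95 on all 4 arrays, the lowest value of the table. HIS3, which carries the his3Δ1 allele in the parent strain, read 10.15 and 9.95 under the hsp30Δ label at 40 °C and 30 °C, and 10.22 and 12.36 in BY4741 at 40 °C and 30 °C, far above that value, and where its probes lie was not analysed here. The a-specific receptor gene STE2 read between 13.90 and 14.45. The BY4741 30 °C array stood apart from the other 3: of 5430 genes, 1886 were highest and 2337 lowest on it. With 1 array for each group, the condition and anything particular to that culture or array cannot be told apart. Nor can less of a transcript in each cell and fewer cells carrying it.

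Nearly all 60S factor genes read high on the BY4741 30 °C array and low on the other 3. BY4741 30 °C was the highest of the 4 arrays for 47 of 49 genes, against 34.7% of all genes, and for 42 of the 49 it was at least 2-fold above each of the other arrays, against 13.6% of all genes. The median level of the 49 genes was 8.43 and 8.47 log2 units under the hsp30Δ label at 40 °C and 30 °C, and 8.53 and 11.48 in BY4741 at 40 °C and 30 °C. The genes not highest on BY4741 30 °C were IPI1, highest on the array labelled hsp30Δ 30 °C, and MRT4, highest on the array labelled hsp30Δ 40 °C. Over the 3 other arrays 33 of 49 genes (67.3%) spanned less than 2-fold, a smaller share than the 80.7% of all genes.

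**Figure D1:**
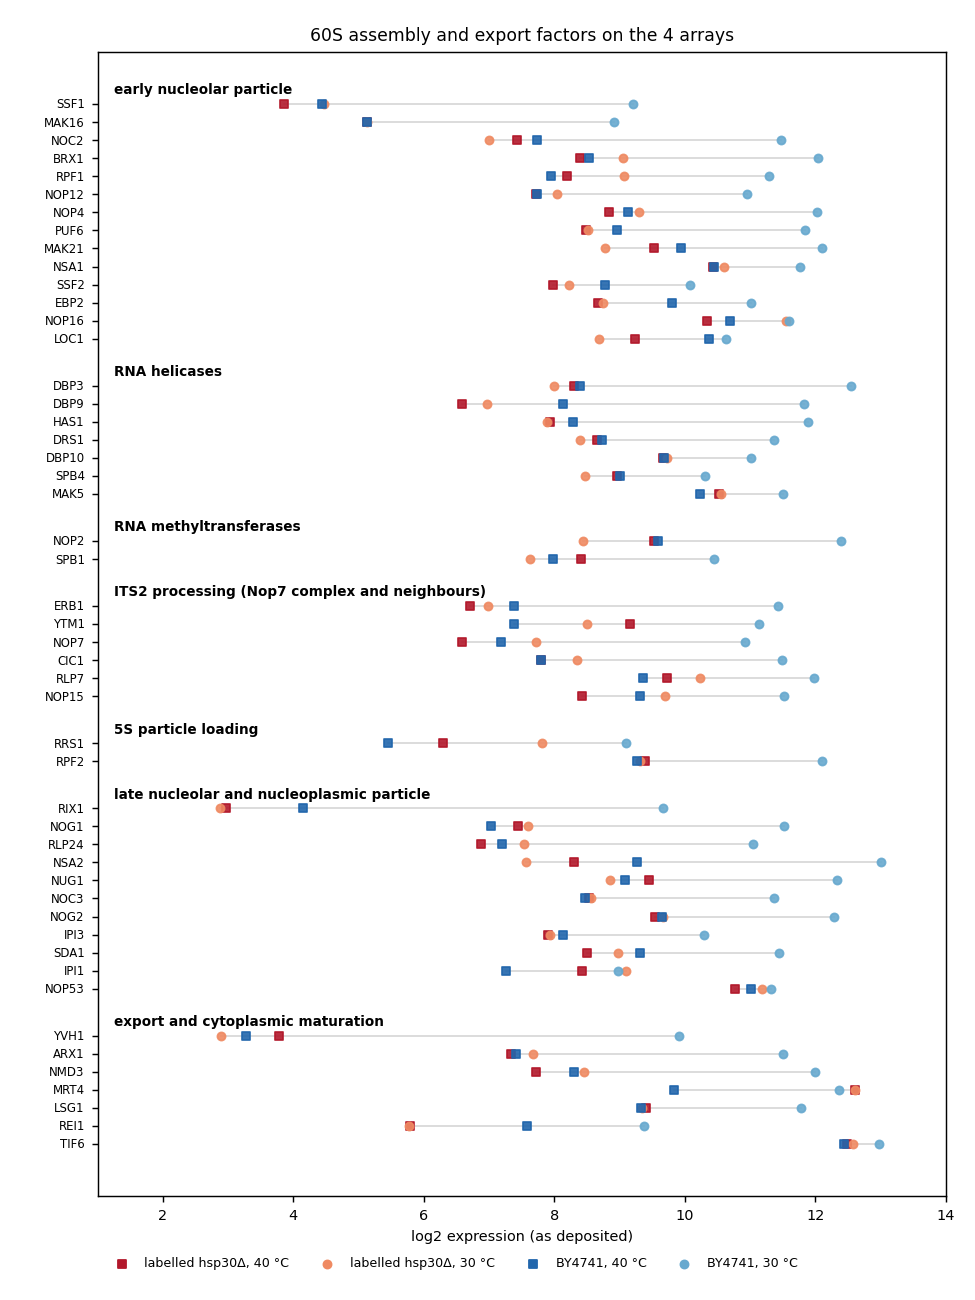
Log2 expression as deposited (x axis) of each of the 49 genes (rows, grouped by role) on the 4 arrays, 1 point for each array. The BY4741 30 °C point lies to the right of the others for 47 genes, and the 3 other arrays span less than 2-fold for 33 of the 49 (67.3%), against 80.7% of all genes. MRT4 is low on BY4741 40 °C alone.

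On the BY4741 40 °C array 45 of 49 genes were at least 2-fold lower than on BY4741 30 °C and 0 were that much higher, where 18.8% of all genes were lower and 18.9% higher by that bound. The median difference was -2.89 log2 units for the 49 genes and 0.13 for all genes. All 49 read below their BY4741 30 °C value. At least 8-fold lower were 22 of them, against 2.3% of all genes, and 22 of the 49 stood among the 100 genes with the lowest differences of the whole table.

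At 30 °C the hsp30Δ label gave nearly the same count against BY4741: 43 of 49 genes were at least 2-fold lower and 0 higher, against 21.4% and 23.2% of all genes. The median was -2.81 for the 49 genes and 0.11 for all genes, and 21 of the 49 were at least 8-fold lower, against 2.89% of all genes. Both comparisons subtract the same BY4741 30 °C array, so the 42 genes at least 2-fold lower in both (15.1% of all genes were) are no separate evidence.

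Between the arrays labelled hsp30Δ, 40 °C minus 30 °C, the 49 genes had a median difference of -0.08. Of them 4 were at least 2-fold lower and 1 higher, against 1.57% and 1.62% of all genes. At 40 °C, labelled hsp30Δ minus BY4741, the median was -0.09, with 5 genes at least 2-fold lower and 3 higher, against 3.59% and 6.7% of all genes. Under quantile normalization these last counts became 11 lower and 3 higher, against 5.16% and 5.93% of all genes. The median at 40 °C was then -0.31 for the 49 genes and -0.04 for all genes. The heat difference in the arrays labelled hsp30Δ exceeded that in BY4741 by at least 2-fold for 44 of the 49 genes, against 21.7% of all genes, with a median of 2.86, which restates the BY4741 values.

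**Figure D2:**
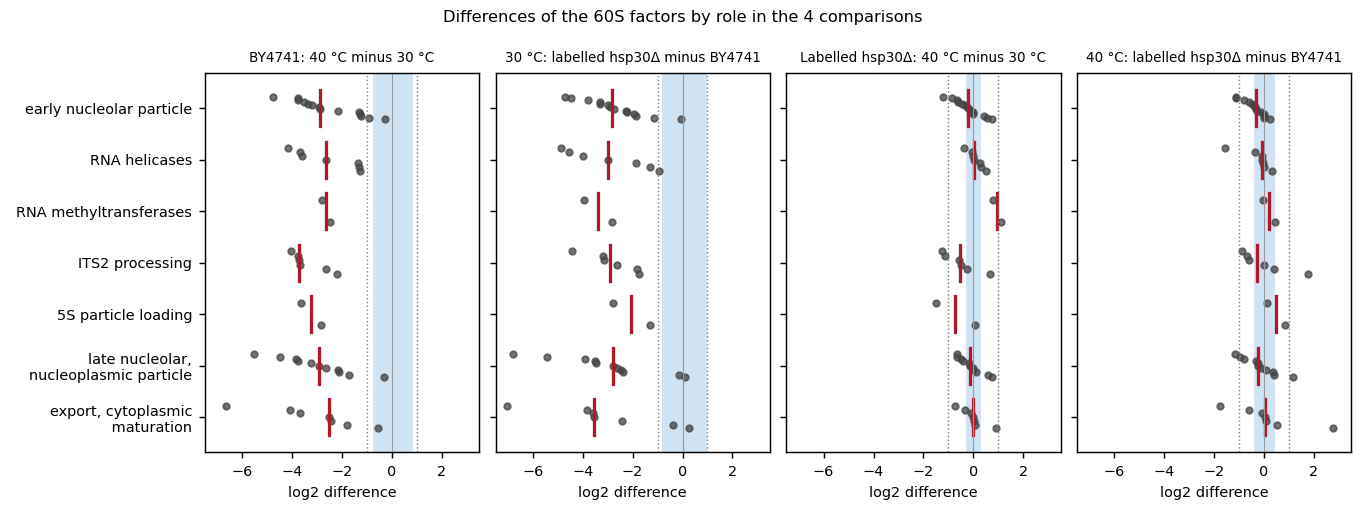
Log2 differences (x axis) of the 49 genes by role (rows) in the 4 comparisons (panels); each point is a gene, the red bar the median of the role, the blue band the middle 50% of all genes and the dotted lines 2-fold. The points of the first 2 panels lie mostly left of the band, and those of the last 2 mostly lie in it or near it.

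The only test that 4 single arrays allow is limma with strain and temperature as additive terms, fitted on all 5430 genes with 1 residual degree of freedom each. It asks for a difference shared by both strain labels, or by both temperatures, and a gene that is high on 1 array of the 4 has a large residual. None of the 49 genes passed at an adjusted p under 0.05 (limma, Benjamini-Hochberg over all genes), where 0% of all genes passed for temperature and 0.203% for strain. The smallest adjusted p among the 49 was 0.998 for temperature and 0.328 for strain. At an unadjusted p under 0.05 in limma, 12 of the 49 were lower for temperature and 14 for strain, with 0 higher in either. Of all 5430 genes, 57 were lower and 52 higher for temperature, 2.01% in both directions together. For strain 140 were lower and 305 higher, 8.2% together. Every heat or strain difference below is therefore a description of 2 arrays.

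Under quantile normalization 6 of the 49 genes passed the strain test, all lower: REI1, DBP9, RIX1, NSA2, ERB1 and SSF1. Of all genes 0.552% passed as lower and 1.47% as higher in that limma fit, 110 genes (2.03%) together, and under median centring or with no filter on dim genes 0 genes passed. In that fit REI1 fell by 3.53 log2 units (standard error 0.65, limma adjusted p 0.00426) and RIX1 had an estimate of -4.24 (standard error 0.84, limma adjusted p 0.0085). With the values as deposited REI1 had an estimate of -2.69 (standard error 0.66) and an adjusted p of 0.328 in limma, and RIX1 -3.98 (standard error 1.201) with 0.46. The standard errors of REI1 were nearly equal in the 2 fits, though its adjusted p-values were far apart. A limma p-value also depends on prior degrees of freedom borrowed from all genes. These were 6.02 for the values as deposited and were not recorded under quantile normalization. The smaller adjusted p-values there are therefore not read as stronger evidence. REI1 read 5.79 and 5.78 under the hsp30Δ label at 40 °C and 30 °C, against 7.58 and 9.37 in BY4741 at 40 °C and 30 °C. Both values of the arrays labelled hsp30Δ were thus below both values of BY4741, as they were for other members such as DBP3 and HAS1. Its strain differences under quantile normalization were -2.84 log2 units at 40 °C and -4.23 at 30 °C, against -1.78 and -3.59 as deposited. Rei1 is a cytoplasmic zinc finger protein that helps recycle the export factor Arx1.

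The factors of the early nucleolar particle were low as a group on the 3 arrays other than BY4741 30 °C. Of 14 such genes, 12 were at least 2-fold lower with heat in BY4741 (median -2.89) and 13 under the hsp30Δ label at 30 °C (median -2.82). SSF1 codes for a Brix-domain protein of the early particle and had the largest heat difference in this role. It read 3.86 and 4.48 under the hsp30Δ label at 40 °C and 30 °C, and 4.45 and 9.20 in BY4741 at 40 °C and 30 °C. This was 27.0-fold lower with heat in BY4741 and 26.5-fold lower under the hsp30Δ label at 30 °C, while its 3 low values lay within 2-fold of each other. They stood near the low end of the scale, whose lowest value is 1.95, so these folds are not exact sizes.

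SSF2, its paralog, read 7.98 and 8.22 under the hsp30Δ label at 40 °C and 30 °C, and 8.78 and 10.08 in BY4741 at 40 °C and 30 °C. Its differences ran the same way but were smaller, 2.45-fold lower with heat in BY4741 and 3.62-fold lower under the hsp30Δ label at 30 °C. The heat difference of SSF1 minus that of SSF2 in BY4741 was -3.46 log2 units, which rests on the low SSF1 value of 4.45 at 40 °C. Whether the 2 probe sets share sequence was not analysed here, and neither carries the suffix that marks shared probes.

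Mak16, Rpf1 and Nsa1 sit together on the early particle, and their genes differed in size. MAK16 read 5.13 and 5.14 under the hsp30Δ label at 40 °C and 30 °C, and 5.14 and 8.91 in BY4741 at 40 °C and 30 °C, 13.7-fold lower in both comparisons with BY4741 30 °C. Under quantile normalization the strain difference of MAK16 at 30 °C was -4.43 log2 units, against -3.78 as deposited. RPF1 was 10.2-fold lower with heat in BY4741 and 4.66-fold lower under the hsp30Δ label at 30 °C. NSA1 was 2.49-fold and 2.23-fold lower. NSA1 thus stood nearer to its BY4741 30 °C level than its partners did.

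The Noc proteins shuttle with the particle out of the nucleolus, Noc2 pairing with Mak21 (Noc1) early and with Noc3 later. NOC2 read 7.43 and 6.995 under the hsp30Δ label at 40 °C and 30 °C, and 7.73 and 11.48 in BY4741 at 40 °C and 30 °C, 13.5-fold lower with heat in BY4741 and 22.4-fold lower at 30 °C on the array labelled hsp30Δ. MAK21 was 4.48-fold and 10.05-fold lower in the same comparisons, and NOC3 7.46-fold and 7.001-fold. Of the further early factors, BRX1 (11.3-fold), NOP12 (9.30-fold), NOP4 (7.47-fold) and PUF6 (7.40-fold) were all lower with heat in BY4741. Brx1 is a Brix-domain protein, and Nop4, Nop12 and Puf6 bind RNA.

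LOC1 and EBP2 differed more between the strain labels than between the temperatures. EBP2 was also at least 2-fold higher on BY4741 30 °C than on each other array, as were most of the 49 genes. Loc1 is a nuclear RNA-binding protein also known from localization of the ASH1 transcript. LOC1 read 9.24 and 8.69 under the hsp30Δ label at 40 °C and 30 °C, and 10.36 and 10.63 in BY4741 at 40 °C and 30 °C. Both BY4741 values were above both others, and the heat difference in BY4741 was 1.2-fold, the smallest of the 49. EBP2, the gene of a nucleolar assembly factor, read 8.67 and 8.75 under the hsp30Δ label at 40 °C and 30 °C, and 9.80 and 11.02 in BY4741 at 40 °C and 30 °C, again with no overlap between the labels. That order does not mark these genes out, since members such as DBP3, HAS1 and NOP2 had it too. Its share over all genes was not counted. At 40 °C, 34 of the 49 genes and 2694 of 5430 genes read lower under the hsp30Δ label. In the additive limma test LOC1 had a strain estimate of -1.54 (adjusted p 0.589) and EBP2 of -1.70 (adjusted p 0.566), so neither passed.

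NOP16 followed temperature more than the strain label. It codes for a nucleolar constituent of the early particle, and it read 10.34 and 11.54 under the hsp30Δ label at 40 °C and 30 °C, and 10.70 and 11.60 in BY4741 at 40 °C and 30 °C. Both 40 °C values were below both 30 °C values, by 2.30-fold under the hsp30Δ label and 1.87-fold in BY4741. Other members, such as NOP4 and RPF1, had that order too. The heat differences under the 2 labels had the same sign for 31 of the 49 genes, all lower, and for 42.7% of all genes. In limma NOP16 had a temperature estimate of -1.05 and did not pass. The strain difference of NOP16 at 30 °C was -0.05 log2 units.

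RNA helicases of the DEAD-box family, which remodel RNA structures in the particle, split into large and small differences. All 7 were at least 2-fold lower with heat in BY4741 (median -2.63), and 6 were under the hsp30Δ label at 30 °C (median -2.97). DBP3 read 8.30 and 8.002 under the hsp30Δ label at 40 °C and 30 °C, and 8.39 and 12.55 in BY4741 at 40 °C and 30 °C, 17.8-fold lower with heat in BY4741 and 23.4-fold lower at 30 °C. DBP9 read 6.59 and 6.97 under the hsp30Δ label at 40 °C and 30 °C, and 8.14 and 11.82 in BY4741 at 40 °C and 30 °C. DBP9 was the only helicase gene at least 2-fold lower under the hsp30Δ label at 40 °C, by 2.94-fold, or -2.35 log2 units under quantile normalization.

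HAS1 and DRS1 were 12.2-fold and 6.21-fold lower with heat in BY4741. The other helicase genes, DBP10, SPB4 and MAK5, lay between 2.44-fold and 2.53-fold lower. MAK5 read 10.53 and 10.56 under the hsp30Δ label at 40 °C and 30 °C, and 10.23 and 11.51 in BY4741 at 40 °C and 30 °C, the smallest heat difference of this role. Between 40 °C and 30 °C under the hsp30Δ label none of the 7 differed by 2-fold (range -0.38 to 0.49).

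The 2 methyltransferase genes, NOP2 and SPB1, code for enzymes that modify the RNA of the large subunit, Nop2 on a base and Spb1 on a ribose. NOP2 read 9.53 and 8.44 under the hsp30Δ label at 40 °C and 30 °C, and 9.58 and 12.39 in BY4741 at 40 °C and 30 °C. It was the only one of the 49 genes at least 2-fold higher at 40 °C under the hsp30Δ label (2.14-fold), while in BY4741 it was 7.01-fold lower with heat. SPB1 read 8.41 and 7.63 under the hsp30Δ label at 40 °C and 30 °C, and 7.98 and 10.45 in BY4741 at 40 °C and 30 °C. Both genes had their lowest value on the array labelled hsp30Δ 30 °C.

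Removal of the second internal spacer (ITS2) of the precursor needs the Nop7, Erb1 and Ytm1 complex, with Cic1, Nop15 and the Rpl7-like protein Rlp7 nearby. All 6 of these genes were at least 2-fold lower in both comparisons with BY4741 30 °C, with medians of -3.71 for heat in BY4741 and -2.89 for the array labelled hsp30Δ at 30 °C. The first was the lowest median of the 7 roles in that comparison. ERB1 read 6.70 and 6.98 under the hsp30Δ label at 40 °C and 30 °C, and 7.38 and 11.43 in BY4741 at 40 °C and 30 °C. It was 16.5-fold lower with heat in BY4741, close to NOP7 (13.3-fold), YTM1 (13.5-fold) and CIC1 (12.9-fold).

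The 3 partners parted on the other arrays. YTM1 read 9.16 and 8.49 under the hsp30Δ label at 40 °C and 30 °C, and 7.38 and 11.14 in BY4741 at 40 °C and 30 °C, so at 40 °C it was 3.43-fold higher on the array labelled hsp30Δ. NOP7 read 6.59 and 7.72 under the hsp30Δ label at 40 °C and 30 °C, and 7.19 and 10.92 in BY4741 at 40 °C and 30 °C. NOP7 was thus lower at 40 °C than at 30 °C under both labels, by 2.20-fold and 13.3-fold. NOP15 did likewise, at 8.43 and 9.70 under the hsp30Δ label at 40 °C and 30 °C, and 9.32 and 11.52 in BY4741 at 40 °C and 30 °C. In limma neither passed the temperature test, with estimates of -2.43 for NOP7 and -1.73 for NOP15 and adjusted p-values of 0.998.

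Rpf2 and Rrs1 form the pair that brings the 5S RNA and its ribosomal proteins into the particle. RRS1 read 6.30 and 7.81 under the hsp30Δ label at 40 °C and 30 °C, and 5.46 and 9.10 in BY4741 at 40 °C and 30 °C. It was lower at 40 °C under both labels, by 2.85-fold under the hsp30Δ label (-2.34 log2 units under quantile normalization) and 12.5-fold in BY4741. It had the smallest unadjusted p of the 49 genes for temperature (0.00756, estimate -2.58, limma adjusted p 0.998). RPF2 read 9.39 and 9.31 under the hsp30Δ label at 40 °C and 30 °C, and 9.26 and 12.11 in BY4741 at 40 °C and 30 °C, and so was high on BY4741 30 °C alone.

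Late nucleolar and nucleoplasmic factors held 2 of the 3 lowest differences among the 49 genes at 30 °C on the array labelled hsp30Δ, those of RIX1 and NSA2. Of these 11 genes, 10 were at least 2-fold lower with heat in BY4741 (median -2.90) and 9 under the hsp30Δ label at 30 °C (median -2.81). RIX1 codes for the subunit that names the Rix1 complex, which works with the large ATPase Rea1 on the late particle. It read 2.97 and 2.88 under the hsp30Δ label at 40 °C and 30 °C, and 4.15 and 9.66 in BY4741 at 40 °C and 30 °C. The highest of 32 fission yeast probe sets, which measure background here, read 2.61 on each of these 3 low arrays. The RIX1 folds, 45.7-fold lower with heat in BY4741 and 110-fold lower at 30 °C on the array labelled hsp30Δ, are thus not exact sizes.

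Of the other subunits of the Rix1 complex, IPI3 had the pattern of RIX1 with smaller differences and IPI1 did not. IPI3 read 7.91 and 7.93 under the hsp30Δ label at 40 °C and 30 °C, and 8.14 and 10.30 in BY4741 at 40 °C and 30 °C, 4.47-fold lower with heat in BY4741 and 5.16-fold lower under the hsp30Δ label at 30 °C. IPI1 read 8.43 and 9.09 under the hsp30Δ label at 40 °C and 30 °C, and 7.26 and 8.98 in BY4741 at 40 °C and 30 °C. IPI1 was low on BY4741 40 °C only, and at 30 °C its values under the 2 labels differed by 0.11 log2 units. The gene of the ATPase itself, MDN1 (now REA1), read 12.67 and 12.10 under the hsp30Δ label at 40 °C and 30 °C, and 11.96 and 12.77 in BY4741 at 40 °C and 30 °C, with no difference of 2-fold.

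The genes of the GTPases Nog1, Nug1 and Nog2 were lower with heat in BY4741 by 22.6-fold, 9.51-fold and 6.18-fold. NOG1 read 7.45 and 7.60 under the hsp30Δ label at 40 °C and 30 °C, and 7.03 and 11.53 in BY4741 at 40 °C and 30 °C. RLP24, whose product holds the place of Rpl24 until the cytoplasm, was 14.4-fold lower with heat in BY4741, and SDA1 4.33-fold. NSA2 read 8.30 and 7.56 under the hsp30Δ label at 40 °C and 30 °C, and 9.26 and 13.01 in BY4741 at 40 °C and 30 °C. Its 43.7-fold difference at 30 °C was the seventh lowest of all 5430 genes, and each of its 3 low values was clear of the fission yeast background.

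NOP53 was nearly level. It codes for the factor that recruits the RNA exosome to the late particle, and it read 10.77 and 11.18 under the hsp30Δ label at 40 °C and 30 °C, and 11.01 and 11.32 in BY4741 at 40 °C and 30 °C. None of its 4 differences reached 2-fold. TIF6, a late-acting factor that keeps the subunits from joining too early, was as flat, at 12.49 and 12.58 under the hsp30Δ label at 40 °C and 30 °C, and 12.44 and 12.98 in BY4741 at 40 °C and 30 °C. These were the only 2 of the 49 genes with no 2-fold difference in any of the 4 comparisons.

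Export and cytoplasmic maturation factors had the widest range of the 7 roles in both comparisons with BY4741 30 °C. Of 7 genes, 6 were at least 2-fold lower with heat in BY4741 (median -2.52) and 5 under the hsp30Δ label at 30 °C (median -3.54). YVH1 had the lowest difference of all 5430 genes in both comparisons. It read 3.79 and 2.89 under the hsp30Δ label at 40 °C and 30 °C, and 3.28 and 9.92 in BY4741 at 40 °C and 30 °C. That is 99.7-fold lower with heat in BY4741 and 130-fold lower at 30 °C on the array labelled hsp30Δ, not exact sizes since the low values lie close to the fission yeast background.

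Yvh1 is a phosphatase-family protein that releases Mrt4 from the particle, and Mrt4 is the P0-like protein that holds the place of the stalk base. MRT4 gave the opposite picture to YVH1 on the arrays labelled hsp30Δ. It read 12.61 and 12.61 under the hsp30Δ label at 40 °C and 30 °C, and 9.84 and 12.36 in BY4741 at 40 °C and 30 °C. MRT4 was low on BY4741 40 °C alone: 5.74-fold lower than on BY4741 30 °C, and 6.82-fold lower than on the array labelled hsp30Δ 40 °C. Its strain difference at 40 °C, 2.77, was the highest of the 49 genes.

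Of the export factors, ARX1 read 7.33 and 7.67 under the hsp30Δ label at 40 °C and 30 °C, and 7.41 and 11.50 in BY4741 at 40 °C and 30 °C, 17.0-fold lower with heat in BY4741. Arx1 binds near the tunnel exit and helps the particle through the pore. NMD3, the adaptor for the exportin Crm1, was 12.9-fold lower in that comparison and 11.6-fold lower under the hsp30Δ label at 30 °C. LSG1, a cytoplasmic GTPase that acts in the release of Nmd3, was 5.44-fold and 5.38-fold lower. The exportin gene CRM1 read 13.15 and 13.55 under the hsp30Δ label at 40 °C and 30 °C, and 12.48 and 13.11 in BY4741 at 40 °C and 30 °C, with no 2-fold difference.

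The heat differences under the 2 labels share no array. Over the 49 genes they correlated at -0.05 (Pearson) and -0.01 (Spearman), against -0.14 and -0.19 over all genes. The strain differences at 40 °C and 30 °C, which also share no array, correlated at 0.39 (Pearson) and 0.34 (Spearman). Over all genes the strain correlations were 0.36 and 0.28, close to those of the 49. These values describe genes, which are not replicates. Between the array labelled hsp30Δ 30 °C and BY4741 40 °C, 5 of the 49 were higher and 8 lower by 2-fold or more, against 9.34% and 6.19% of all genes. The higher ones were MRT4, RRS1, IPI1, RPF1 and YTM1. The lower ones were REI1, NSA2, LOC1, RIX1, DBP9, MAK21, NOP2 and EBP2. The higher share of the 49, 10.2%, was close to that of all genes, and the lower share, 16.3%, was above it. Both shares rest on 2 single arrays and were not tested. As deposited, the medians of the 49 genes on the 3 low arrays lay within 0.10 log2 units of each other.

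**Figure D3:**
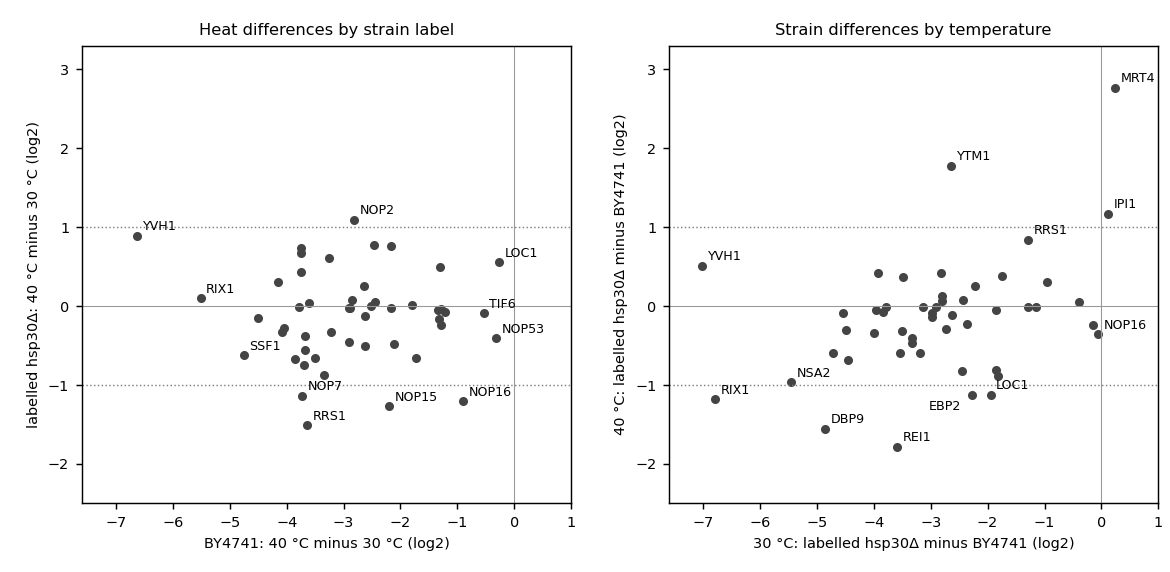
Left, heat differences in log2 units under the hsp30Δ label (y axis) against those in BY4741 (x axis); right, strain differences at 40 °C (y axis) against those at 30 °C (x axis); each point is 1 of the 49 genes, with dotted lines at 2-fold on the y axis. Points spread from -0.27 to -6.64 on the x axis of the left panel and stay between -1.51 and 1.09 on its y axis. MRT4, YTM1 and IPI1 lie above the upper dotted line of the right panel.

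A list of 47 further large subunit factors was lower too, with smaller medians. Of them 30 were at least 2-fold lower and 1 higher with heat in BY4741 (median -1.44), and 32 were lower and 0 higher under the hsp30Δ label at 30 °C (median -1.53). SYO1, which imports ribosomal proteins Rpl5 and Rpl11, read 3.99 and 4.23 under the hsp30Δ label at 40 °C and 30 °C, and 3.88 and 8.76 in BY4741 at 40 °C and 30 °C. RRB1, a chaperone of Rpl3, read 7.69 and 7.38 under the hsp30Δ label at 40 °C and 30 °C, and 8.59 and 12.27 in BY4741 at 40 °C and 30 °C. At the other end, RSA1 was higher with heat in BY4741 by 1.38 log2 units and the pore export factor gene MEX67 had 0.97, short of 2-fold, under the hsp30Δ label at 30 °C.

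Small subunit factors, 54 genes, had medians of -2.63 for heat in BY4741 and -2.08 for the array labelled hsp30Δ at 30 °C, with 48 and 45 genes at least 2-fold lower. The 70 genes of large subunit ribosomal proteins had medians of -2.09 and -2.33, with 67 and 69 lower. The 49 assembly factors had medians of -2.89 and -2.81. At 40 °C, labelled hsp30Δ minus BY4741, the medians were -0.09 for the 49 genes, 0.15 for small subunit factors and -0.24 for large subunit proteins. Under quantile normalization the median of the 49 genes there was -0.31, and those of the other lists are not given here. The lists' differences from each other were not tested.

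**Figure D4:**
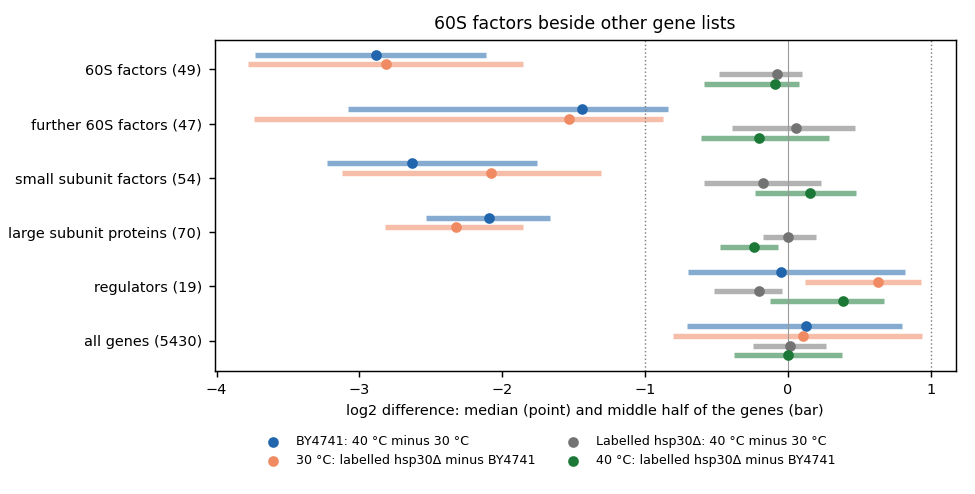
Median (point) and middle 50% of genes (bar) of the log2 difference (x axis) in 4 comparisons (colours) for 6 gene lists (rows, number of genes in brackets); dotted lines mark 2-fold. The 49 genes have medians of -2.89 and -2.81 in the comparisons with BY4741 30 °C, and the medians of the regulators lie between -0.20 and 0.63.

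Rlp7, Rlp24 and Mrt4 each resemble a ribosomal protein, and RPL7A, RPL24A and RPP0 are set beside their genes here. For Rpl7 and Rpl24 only the A gene was compared. With heat in BY4741, RLP7 had -2.63 and RPL7A -1.36, RLP24 -3.85 and RPL24A -2.94, and MRT4 -2.52 and RPP0 -1.19 log2 units. In each pair the assembly factor's difference was further down. RPL7A and RPP0 read 15.47 and 15.17 on BY4741 30 °C, where the highest value of the array was 16.01. Whether the top of the scale narrowed their differences was not tested. At 30 °C, labelled hsp30Δ minus BY4741, MRT4 had 0.25 and RPP0 -1.85, so there the order was turned.

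Of 19 measured regulators of ribosome genes, 2 were higher and 3 lower by 2-fold or more with heat in BY4741 (median -0.05). The shares of all genes there were 18.9% and 18.8%. Under the hsp30Δ label at 30 °C, 4 were higher and 1 lower (median 0.63), against 23.2% and 21.4% of all genes. Each count was a smaller share of the regulators than of all genes, so the counts do not mark the regulators out. CRF1, a corepressor of ribosomal protein genes, read 8.17 and 8.35 under the hsp30Δ label at 40 °C and 30 °C, and 7.43 and 4.49 in BY4741 at 40 °C and 30 °C. CRF1 was lowest on BY4741 30 °C, as were 8 of the 19 regulators and 2337 of 5430 genes. A link to the 60S factors was not tested. SFP1, an activator of ribosome biogenesis genes, was also lowest on that array. It read 12.07 and 12.46 under the hsp30Δ label at 40 °C and 30 °C, and 11.21 and 10.68 in BY4741 at 40 °C and 30 °C. With heat in BY4741 the regulators past 2-fold were CRF1 (2.94 log2 units) and TPK2 (1.28) on the higher side, and ABF1 (-2.21), TPK3 (-2.07) and KOG1 (-1.16) on the lower side. The repressors DOT6, STB3 and TOD6 had 0.87, 0.55 and 0.54, none past 2-fold.

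On the gene order of the reference annotation (RefSeq, assembly R64), 4 of the 49 genes have another gene of these ribosome lists or a small subunit protein gene as an immediate neighbour. These are RIX1 with UTP9, NSA2 with LCP5, NOP12 with RPS15 and NMD3 with DBP8. UTP9 was lower with heat in BY4741 (-1.5 log2 units), as were LCP5 (-2.29) and RPS15 (-1.998), whereas DBP8 had -0.60. The 85 other measured neighbours of the 49 genes had a median of -0.05 in that comparison, and 22 of them were at least 2-fold lower, 25.9%, against 18.8% of all genes. These 85 are the neighbours outside the lists used here, which do not hold every gene of ribosome assembly. The 25.9% is therefore not a share of unrelated genes. Named after their values were seen, RRP3 beside SSF1 (-3.59), GAR1 beside RPF1 (-3.53) and BMT2 beside MAK5 (-3.07) were among the 22. So were GCD10 beside NOP2 (-3.04) and ESF2 beside NOG2 (-2.89). NOP16, with a heat difference of -0.90 in BY4741, lies between PMI40 and MNN1, which had -2.55 and -2.48.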

How the data were processed

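Per the labels, biotin-labelled total RNA of 4 cultures was hybridised to Affymetrix arrays, 1 array for each group. The values are log2 expression as deposited by the authors; per the submitters' processing notes GCRMA and MAS5 were used, with roles and order not given in the sources used here. The table holds 5802 probe sets and 0 columns of other samples; precision is limited by the number of arrays.

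Of the probe sets, 5483 name 1 budding yeast gene, 32 name fission yeast genes and 287 are unnamed here. A gene was read from its probe set with the highest mean, giving 5436 genes. A background floor of 1.96, the median over arrays of the fission yeast probe sets' 95th percentile, replaced any lower value in the differences. Genes above it on at least 1 array were kept (5430). Differences are 40 °C minus 30 °C or labelled hsp30Δ minus BY4741, counted at 2-fold.

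The test was limma 3.58.1 (lmFit, eBayes, R 4.3.3) on unfloored log2 values with additive strain and temperature. It was checked on simulated data in which heat shifted genes alike under both strain labels. That check does not cover genes high on 1 array of the 4. Any member could be named; values on all arrays are given for the 5 highest and lowest of each comparison, the extremes of each role and some partners of these, the latter chosen after values were seen. The members, roles and lists were chosen with earlier results of these data known. LEU2 and URA3 of the lists were not analysed here, another listed gene is not reported here, DBP4 and HCA4 are 1 gene, and promoter motifs and protein sequences were not analysed here.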

Additional observations from a re-analysis of the deposited data

Results flagged for a closer look

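The heat difference of NOP2 ran opposite ways under the 2 strain labels, 1.09 log2 units on the arrays labelled hsp30Δ and -2.81 in BY4741, each past 2-fold. The strain difference of YTM1 ran opposite ways at the 2 temperatures, 1.78 at 40 °C and -2.64 at 30 °C. Each value rests on 2 single arrays, and neither difference was tested.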

How the results depend on the processing

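Each difference was recomputed under quantile normalization, median centring, no background floor, no filter on dim genes and the mean of a gene's probe sets. Of 1225 values of the 49 genes so obtained, 0 changed sign after passing 2-fold and 12 moved by 1.5-fold or more, all under quantile normalization. Of 85 medians and counts, 2 moved, both under quantile normalization: the genes at least 2-fold lower at 40 °C on the array labelled hsp30Δ became 11 in place of 5, and the genes past the strain test 6 in place of 0; the cause was not tested. Over all genes 11 passed the strain test as deposited, 110 under quantile normalization and 0 under median centring or with no filter. The limma test was also run with a trend on mean level, with 0 of the 49 genes past either test. No paired analysis was possible because each group has 1 array and the labels carry no replicate numbers. Leaving out an array was not possible for the same reason. Values close to the fission yeast background, as for YVH1 and RIX1, and other low values, as for SSF1, limit the size of a fold. The spread between cultures is unknown.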
